A study of Mus musculus with 6 samples.

Results

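ATP-binding cassette (ABC) transporters were described in mouse colonic crypts, the epithelial glands of the large bowel, in untreated mice, in early colitis and in chemically induced adenomas. Members were the probe sets whose platform annotation gave exactly 1 gene symbol made of Abc, a letter from a to g and a digit. They numbered 65 probe sets for 36 genes, of 22626 measured probe sets and 12393 genes with a probe set of 1 symbol. The 36 genes fall into subfamilies a (7 genes), b (8), c (8), d (3), e (1), f (3) and g (6).

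Each of the 6 Affymetrix arrays carried RNA of crypts pooled from 2 male mice heterozygous for Lgr5-lacZ, in which lacZ reports on Lgr5, a receptor of intestinal stem cells. All groups carried this allele, so no array represents mice without it. Control mice, 6 to 8 weeks old, drank water, and DSS mice of the same age drank 1% dextran sulfate sodium (DSS), an agent that injures the colon lining, for 2 days. Tumor arrays each held crypts of 12 pooled adenomas. Those mice received azoxymethane (AOM), a colon carcinogen, at 12.5 mg per kg when 6 to 8 weeks old. Beginning 5 days later they had 3 cycles of 5 days of DSS (2, 1.5 and 1.0%), each with 14 days of water after it. Their age is given as 90 days after AOM, so tumor, age, AOM and earlier DSS cycles cannot be told apart in comparisons with the tumor group. Each group had 2 arrays, which the labels call biological replicates.

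ABC transporters use ATP to move a substrate across a membrane. Abcb1a (P-glycoprotein) and Abcg2 sit in the apical membrane of gut epithelium and return drugs, dietary toxins and other foreign compounds to the lumen. Members of subfamilies a and g also export cholesterol and phospholipids, subfamily c exports conjugated organic anions, and subfamily d serves peroxisomes and lysosomes. Proteins of subfamilies e and f have the ATP-binding domains but no membrane domain, and act on ribosomes and translation.

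Values are MAS5 signal intensities on a linear scale, 1 per probe set and array. They are compared between arrays for 1 probe set, never between genes. Array medians ran from 94.8 to 131, and 2 arrays a group limit the precision. The mean of 27 probe sets for poly-A control transcripts, which are added to the RNA, reached 1168 for DSS replicate 1 and 777 for control replicate 1, while the 4 remaining arrays gave 312 to 394. Actin probe sets at the 3' end exceeded those at the 5' end, a difference that grows as RNA degrades, by 0.95 and 1.03 in log2 for tumor crypts, compared with 1.19 to 1.63 elsewhere. The part of these technical measures in the results was not tested. As a check that the material held epithelium, the summed intensity of 8 pan-epithelial genes lay between 71205 and 86812 on all 6 arrays. This sum cannot tell crypts from other epithelium or show how many other cells were carried over.

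A gene was tested if a probe set lay above its array's median on at least 2 arrays, and its probe set with the highest mean was then used. Of the 36 ABC genes 18 were tested, namely 3 each of subfamilies a, b, c, f and g, 2 of d and 1 of e, and 25 of the 65 probe sets passed. Of these, 14 genes were above the median on all 6 arrays. Abcg1 passed only through the tumor arrays, so its difference from the other groups follows in part from the filter. Changes are differences of log2(intensity + 17.8), which understates the change of low genes, and the limma test called a gene at an adjusted p under 0.05 over 7456 genes.

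In tumor crypts against control crypts, 4 of the 18 tested genes rose (Abca1, Abcg1, Abcc1 and Abcg5), where 12.8% of all genes tested rose. Against the same controls 3 fell (Abcb1a, Abcg2 and Abcc3), where 9.74% of all genes fell. The median log2 change of the 18 genes was 0.05, the same as over all genes tested to 2 decimals. In tumor against DSS crypts, 4 rose (Abca1, Abcg1, Abcc1 and Abce1; background 14.8%) and the same 3 fell (background 11.3%). Both comparisons use the same tumor arrays, and nothing particular to the family is read from these counts. Without either tumor array 2 genes rose against control, and without DSS replicate 1 or tumor replicate 2 the number against DSS was 2. With median centring 3 ABC genes rose and 4 fell against control, and 651 and 1227 of all genes did in place of 954 and 726. In DSS against control crypts no ABC gene was called in either direction, and 0% of all genes were. Abcg2 and Abce1 had an unadjusted p under 0.05 there, among 189 of 7456 genes.

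**Figure D1:**
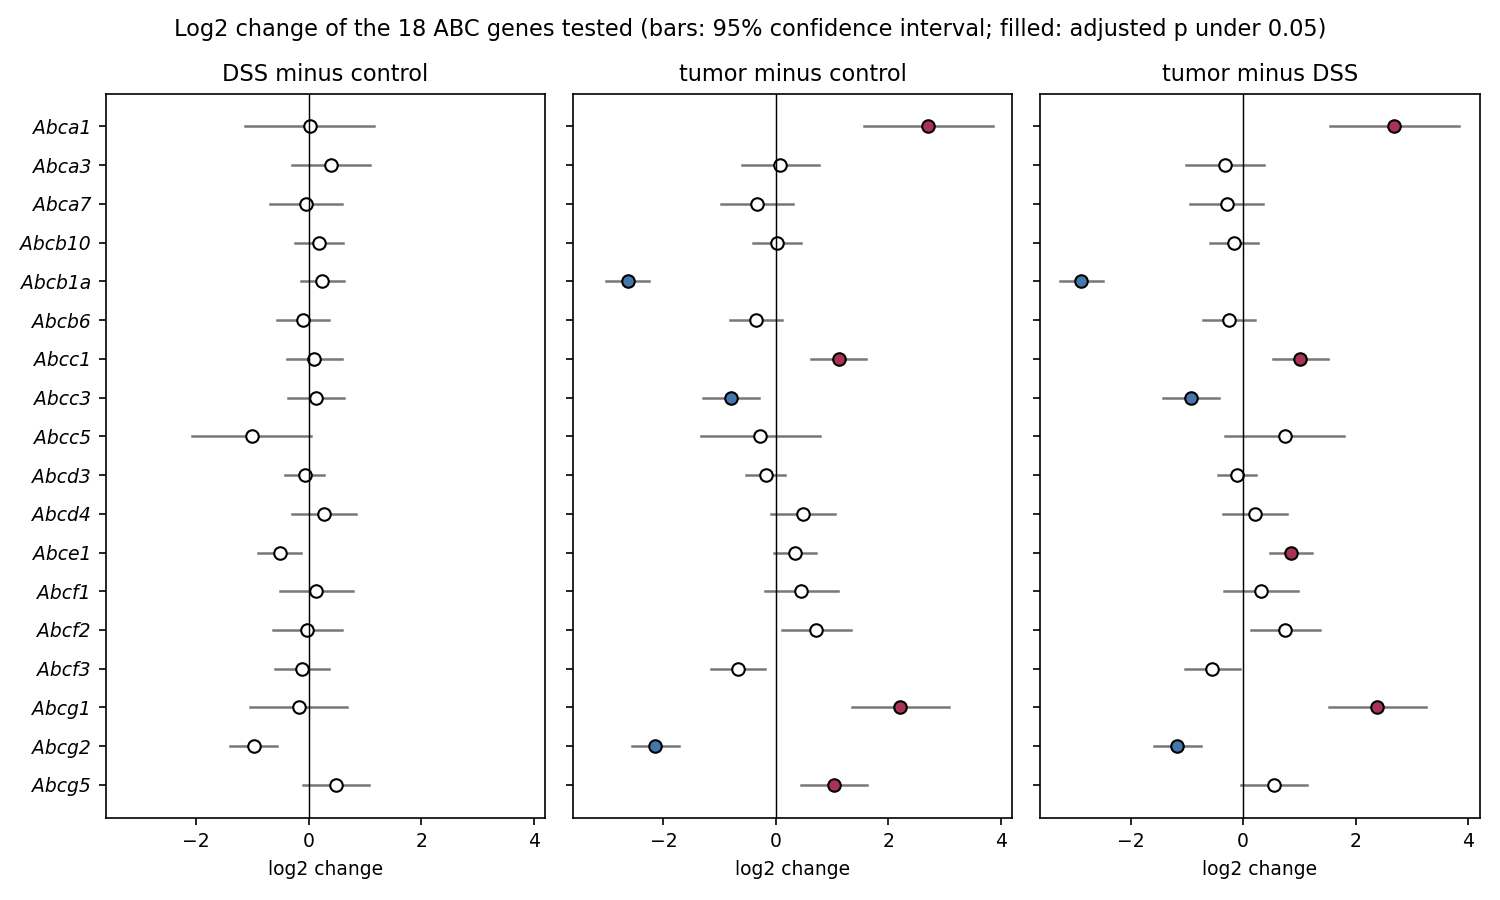
Log2 change of the 18 ABC genes tested in DSS minus control, tumor minus control and tumor minus DSS, ordered by subfamily, with bars for the 95% confidence interval and filled points for adjusted p under 0.05. No point is filled in the first panel, while Abca1 and Abcg1 lie farthest to the right and Abcb1a and Abcg2 farthest to the left in the second.

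Subfamily b held the largest fall among the 18 genes. Abcb1a encodes P-glycoprotein, an apical pump for a wide range of hydrophobic drugs. Its tested probe set, 1419759_at, read 2699 and 2805 on the control arrays, 3449 and 3069 on the DSS arrays, and 466 and 392 on the tumor arrays. Every tumor value lay far below every other value, and the mean of the control arrays was 6.42 times that of the tumor arrays. The log2 change was -2.64 ± 0.17 (SE) against control (adjusted p = 6.45e-05) and -2.88 ± 0.17 against DSS (adjusted p = 5.01e-05). The second Abcb1a probe set, 1419758_at, read 2071 and 2490, then 2159 and 2576, then 349 and 322, a change of -2.70 against control. The groups kept the same order of tumor below the rest on both. DSS minus control was 0.24 ± 0.17 on the first and 0.05 on the second, and neither passed.

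Abcb1b and Abcb4 are the next protein-coding genes after Abcb1a on the chromosome and encode another P-glycoprotein and a phospholipid transporter of bile. Abcb1b ranged from 1.16 to 39.3 and Abcb4 from 22.8 to 44.6, below every array's median, and neither was tested. The genes are close in sequence, and whether probes of one also bind transcripts of another was not tested. Abcb10 and Abcb6, transporters tied to haem formation, ranged from 256 to 320 and from 315 to 491. Their changes against control were 0.02 (95% interval -0.41 to 0.44) for Abcb10 and -0.36 (-0.82 to 0.10) for Abcb6. Neither passed, and both intervals exclude a change of the size seen for Abcb1a. Abcb8 was above the median on 1 array, at 129, and the bile salt pump Abcb11 stayed at or below 19.5.

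Subfamily g held the other large fall. Abcg2, the breast cancer resistance protein, exports drugs, urate and porphyrins. Its probe set, 1422906_at, read 2153 and 2848 on the control arrays, 1213 and 1288 on the DSS arrays, and 555 and 537 on the tumor arrays. The 3 groups did not overlap, with DSS between the others. The mean was 4.58 times as high in control as in tumor, 2.29 times as high in DSS as in tumor, and 2.00 times as high in control as in DSS. Abcg2 fell by 2.15 ± 0.18 in log2 against control (adjusted p = 0.000231) and by 1.17 ± 0.18 against DSS (adjusted p = 0.00289). The DSS minus control change of -0.98 ± 0.18 had the smallest p among ABC genes (0.000623) but an adjusted p of 0.516, so it did not pass. Between arrays of the same number it was -0.82 and -1.13.

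Markers of surface colonocytes, the absorptive cells, were also lower in tumor crypts. The summed intensity of 7 colonocyte genes was 37580 to 46095 in control, 29894 to 35505 in DSS and 8226 to 11800 in tumor crypts. Of the 7, 6 fell against control, where 9.74% of all genes fell. Against DSS 5 fell, while Krt20 was higher (2510 and 2820 in DSS, 3428 and 3667 in tumor crypts). The colonocyte sum and Abcg2 were below control on both DSS arrays. Abcb1a was above control on both by probe set 1419759_at, a change that did not pass, and overlapped with control by 1419758_at. The 6 crypt base genes summed to 1549 to 1561, 861 to 903 and 5141 to 6272 in the same order of groups. Of these, 5 rose against control, where 12.8% of all genes rose. Lgr5 and Tnfrsf19 lay above the array medians only on the tumor arrays, so their difference from control follows in part from the filter. Goblet cell genes, 6 in number, summed to 73109 to 75548, 76580 to 85268 and 37286 to 50916, and 5 of them fell. Their part in the falls of Abcb1a and Abcg2 was not tested. In bulk RNA fewer cells of a type and less RNA per cell cannot be told apart.

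**Figure D2:**
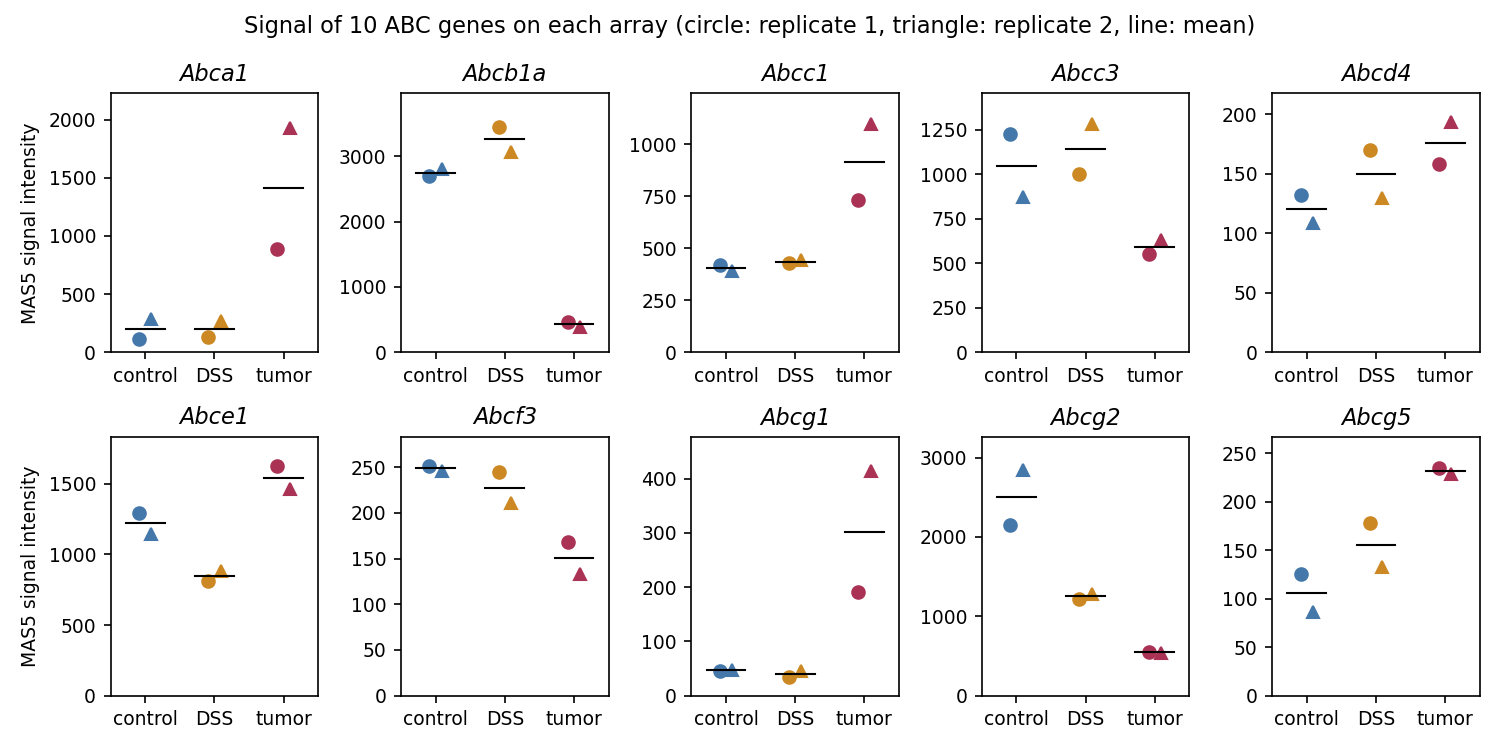
MAS5 signal intensity (linear axis from 0, scaled for each gene) of 10 ABC genes on the 2 control, 2 DSS and 2 tumor arrays, with circles for replicate 1, triangles for replicate 2 and a line for the mean. Abcb1a is high in control and DSS and low in tumor crypts, Abcg2 steps down from control (2153 and 2848) through DSS to tumor (555 and 537), and Abca1 is higher on the replicate 2 array of each group.

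The promoters of the 2 falling drug pumps are shown for what lies before their start sites, with those of the lipid pumps Abca1 and Abcg5 for contrast. Sequences are from RefSeq on build GRCm38.p6, 250 bases before to 50 after a start, on the gene's strand, and 27 of the 36 genes had at least 1 window (33 windows). Capitals mark matches, on either strand, to 6 motifs. These are the GC box, GGGCGG, and the box named by its letters, CCAAT, the E-box of bHLH factors, CACGTG, and the half-site bound by many nuclear receptors, AGGTCA. The last are the AP-1 site bound by Fos and Jun, TGACTCA, and the site bound by TCF factors, CTTTGAT. A match is a description of letters and no sign of binding. The Abcb1a window is chr5:8566841-8567140, plus strand. The Abcg2 window shown is the farthest upstream of 3, chr6:58584283-58584582, plus strand, and which of the 3 starts the crypts use was not tested. Abca1 is at chr4:53159846-53160145 and Abcg5 at chr17:84682962-84683261, both minus strand.
Abcb1a: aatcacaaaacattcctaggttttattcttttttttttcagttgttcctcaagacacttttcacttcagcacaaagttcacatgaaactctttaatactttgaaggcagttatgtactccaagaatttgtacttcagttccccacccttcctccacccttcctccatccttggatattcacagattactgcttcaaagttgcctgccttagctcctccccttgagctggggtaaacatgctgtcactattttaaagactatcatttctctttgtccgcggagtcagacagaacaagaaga
Abcg2: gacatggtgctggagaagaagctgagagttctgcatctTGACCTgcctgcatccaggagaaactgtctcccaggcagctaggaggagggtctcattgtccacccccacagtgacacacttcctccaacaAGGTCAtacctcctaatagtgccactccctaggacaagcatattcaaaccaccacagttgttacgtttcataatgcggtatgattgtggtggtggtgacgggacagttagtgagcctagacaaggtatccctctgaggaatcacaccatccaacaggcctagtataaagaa
Abca1: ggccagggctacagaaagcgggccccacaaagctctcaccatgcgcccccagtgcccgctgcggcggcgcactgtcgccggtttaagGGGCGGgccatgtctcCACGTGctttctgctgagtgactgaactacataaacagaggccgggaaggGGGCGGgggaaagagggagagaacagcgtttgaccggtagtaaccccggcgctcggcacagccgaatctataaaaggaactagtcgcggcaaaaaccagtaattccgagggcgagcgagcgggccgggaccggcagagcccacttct
Abcg5: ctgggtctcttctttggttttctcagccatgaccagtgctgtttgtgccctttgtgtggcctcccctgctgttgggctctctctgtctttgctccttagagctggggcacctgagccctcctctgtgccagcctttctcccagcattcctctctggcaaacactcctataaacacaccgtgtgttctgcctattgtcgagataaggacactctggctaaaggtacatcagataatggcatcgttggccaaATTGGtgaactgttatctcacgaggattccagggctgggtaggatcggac

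The Abcb1a window has a GC content of 40.3%, where the median over all windows is 52.7%, and none of the 6 motifs was found in it. The Abcg2 window shown holds 2 nuclear receptor half-sites. The other Abcg2 windows hold 2 GC boxes with 1 CCAAT box, and 4 GC boxes with 1 half-site. Abca1, at 62.7% GC, has 2 GC boxes and 1 E-box, and Abcg5 has 1 CCAAT box. Of all 32851 promoter windows, 35.7% hold a GC box, 37.4% a CCAAT box, 7.15% an E-box, 16.3% a half-site, 5.20% an AP-1 site and 3.73% a TCF site. Among the 33 ABC windows, 19 hold a GC box, 11 a CCAAT box, 4 an E-box and 7 a half-site, and 0 hold an AP-1 or TCF site.

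Subfamilies a and g also hold exporters of cholesterol and phospholipid. Abca1 loads cholesterol and phospholipid onto apolipoprotein A-I. Its probe set 1421840_at read 117 and 289 on the control arrays, 129 and 272 on the DSS arrays, and 889 and 1932 on the tumor arrays. Both tumor values lay above all others, and in each group the replicate 2 array was the higher. The change was 2.71 ± 0.50 against control (adjusted p = 0.00679) and 2.69 ± 0.50 against DSS (adjusted p = 0.00641). Between arrays of the same number it was 2.75 and 2.67 against control. DSS minus control was 0.02 ± 0.50, a wide interval. The other Abca1 probe sets, 2 in number, stayed at or below 17.9 on every array and were below the filter.

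Abcg1 (1423570_at), which passes cholesterol to high-density lipoprotein, read 46.3 and 47.8 in control, 35.1 and 44.7 in DSS, and 191 and 415 in tumor crypts. Only the tumor arrays were above their medians. It rose by 2.21 ± 0.38 against control (adjusted p = 0.00484) and by 2.38 ± 0.38 against DSS (adjusted p = 0.00306). With the pseudocount set at the median of all values the first was 1.35, and without either tumor array the gene no longer met the filter.

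Macrophages also express these exporters, and some myeloid markers were higher in tumor crypts. The summed intensity of 10 myeloid genes was 1942 to 2606 in control, 1874 to 2612 in DSS and 5340 to 10432 in tumor crypts, and none of them lay at or below the pseudocount on every array. Of the 6 tested, 2 rose against control, Lyz2 (lysozyme) by 3.89 and Cd14 by 0.70. These genes were also the largest parts of the sum on both tumor arrays. The other tested genes had positive changes that did not pass. Csf1r (144), C1qa (85.6), C1qb (98.9) and Tyrobp (83.4) on tumor replicate 1 lay below control replicate 2 (170, 160, 194 and 126). Tumor replicate 2 was above both control arrays for each. Among genes not tested, Adgre1, C1qc and Itgam overlapped with control, while Cd68 was higher on both tumor arrays. Lyz2 read 120 and 460 in control, 148 and 487 in DSS, and 2755 and 5154 in tumor crypts, so the replicate 2 array was the higher in each group. Markers that did not rise shared that order, such as the smooth muscle gene Acta2 at 448 and 1689, 689 and 1761, and 293 and 794. Cd14 had the other order in control (1568 and 1270) and DSS crypts (1449 and 1158), and its call against control was lost in 9 of 18 alternatives, among them those without control replicate 1 (0.85) or 2 (0.56), DSS replicate 1 (0.70) or 2 (0.70), or tumor replicate 2 (0.51). Of 7 tested fibroblast genes 1 rose, Vim by 3.25, beside 12.8% of all genes. Another 4 had negative changes that did not pass, and the median of the 7 was -0.46. Neutrophil genes, 6 in number, summed to 69.8 to 123 in control, 75 to 123 in DSS and 1045 to 11357 in tumor crypts. The higher sum came from the 2 tested, S100a8 (698 and 6638 in tumor crypts) and S100a9 (281 and 4555), which both rose, beside 12.8% of all genes. Both lay above the array medians only on the tumor arrays, so their rise follows in part from the filter. Csf3r (42.0 and 127), Cxcr2 (3.37 and 21.0) and Elane (12.4 and 7.08) overlapped with control and were not tested, and Mpo stayed at or below the pseudocount. Of the smooth muscle, endothelial, lymphoid and general leukocyte markers, 5, 1, 1 and 1 were tested and 0 were called against control. The part of these cells in the rises of Abca1 and Abcg1 was not tested.

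Abcg5 and Abcg8 encode the subunits of 1 sterol pump that returns plant sterols and cholesterol to the gut lumen. They are neighbours on opposite strands, and the Abcg5 window shares 209 bases with 1 of the 2 Abcg8 windows and 0 with the other. Abcg5 (1419393_at) read 126 and 86.7 in control, 178 and 133 in DSS, and 235 and 229 in tumor crypts, with the tumor values above all others. It rose by 1.03 ± 0.26 against control (adjusted p = 0.0238), and the change of 0.54 against DSS did not pass (adjusted p = 0.157). The rise was no longer called with quantile normalization (0.82), median centring (0.78), no filter (1.03), or without control replicate 2 (0.80), tumor replicate 1 (1.01) or tumor replicate 2 (1.05), and it was 0.67 with the pseudocount at the median. Abcg8 read 66.7 and 57.5, 93.9 and 72.6, and 91.3 and 68.0 in the same order. It was below every median and not tested, and its DSS and tumor values overlapped.

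Other members of subfamily a did not pass. Abca3, a phospholipid transporter known from lung surfactant, read 545 and 405, 599 and 651, and 355 and 696, with a change of 0.08 against control (95% interval -0.61 to 0.77). Abca7, a phospholipid transporter of phagocytes and brain, ranged from 150 to 286 and changed by -0.34 (-0.98 to 0.31). Abca2, Abca4, Abca8a and Abca8b stayed between 1.11 and 63.0 and were not tested.

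Subfamily c moved in both directions. Abcc1 exports glutathione and glucuronide conjugates at the basolateral side of cells. Its probe set 1452233_at read 421 and 388 in control, 429 and 441 in DSS, and 733 and 1095 in tumor crypts, with no overlap between tumor and the other groups. It rose by 1.11 ± 0.21 against control (adjusted p = 0.00814) and by 1.01 ± 0.21 against DSS (adjusted p = 0.0108). The second was no longer called without DSS replicate 1 (0.99) or tumor replicate 2 (0.73). A second Abcc1 probe set, at 3.33 to 52.9, was below the filter.

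Abcc3 (1428988_at), a basolateral exporter of bile salts and glucuronides, read 1223 and 874 in control, 1001 and 1285 in DSS, and 554 and 629 in tumor crypts. Both tumor values were below all others. It fell by 0.79 ± 0.22 against control (adjusted p = 0.0335) and by 0.92 ± 0.22 against DSS (adjusted p = 0.0167). The first was no longer called with no filter (-0.79), or without control replicate 1 (-0.55), tumor replicate 1 (-0.70) or tumor replicate 2 (-0.88). The second was no longer called without DSS replicate 2 (-0.75) or tumor replicate 1 (-0.83). Control replicate 1 and DSS replicate 2 were the higher arrays of their groups.

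Abcc5, an exporter of cyclic nucleotides, had 7 probe sets, of which 1 passed. It read 182 and 109 in control, 107 and 31.8 in DSS, and 92.4 and 138 in tumor crypts. The DSS values lay below the control values, at -1.02 ± 0.46, with an unadjusted p of 0.0580 and an adjusted p near 1. The Abcc5 probe sets below the filter gave -0.60 to 0.37 in DSS minus control, so they differ in sign. Abcc2, the apical exporter of conjugates into bile, was above the median only on tumor replicate 2 and so was not tested. It read 21.4 and 32.0, 26.6 and 22.8, and 82.0 and 290, with both tumor values above all others. Abcc6, Abcc8, Abcc9 and Abcc10 stayed between 0.74 and 82.1. Abcc8 and Abcc9 are the regulatory subunits of ATP-sensitive potassium channels, and of the 2 pore genes of those channels 1 was tested, Kcnj8, at 0.04.

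**Figure D3:**
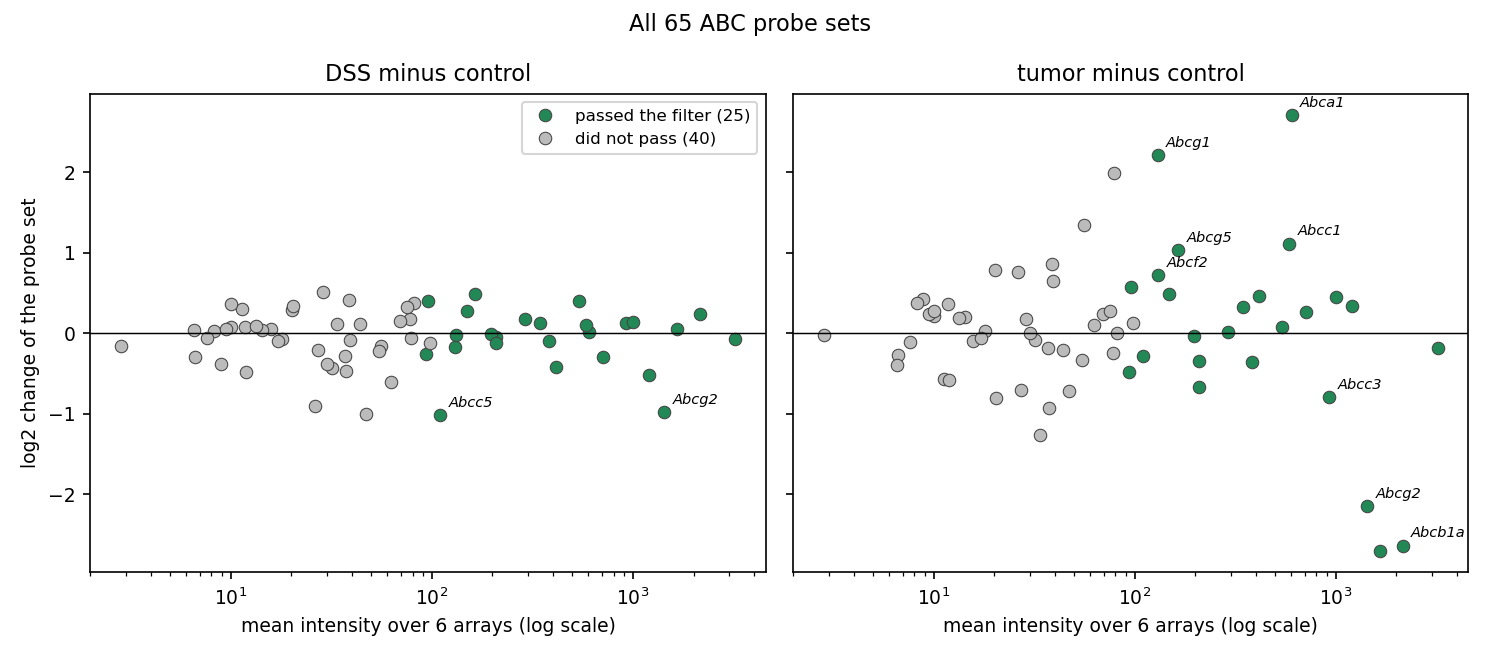
Log2 change of all 65 ABC probe sets against their mean intensity over 6 arrays (log axis), in DSS minus control and tumor minus control, with green points for the 25 that passed the filter and grey for the 40 that did not. The pseudocount shrinks the changes of dim probe sets, so heights are not compared across the axis. The lowest 3 points in the second panel are Abcb1a, with 2 probe sets, and Abcg2, and the grey point near 2 is Abcc2.

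In subfamily d, Abcd3, a peroxisomal importer of fatty acyl-CoA, ranged from 2960 to 3654 with a change of -0.18 against control (95% interval -0.53 to 0.16). Abcd4, which works in lysosomal cobalamin export, read 132 and 108 in control, 170 and 129 in DSS, and 158 and 193 in tumor crypts. Its change of 0.49 ± 0.25 did not pass (adjusted p = 0.194). Abcd2 stayed at or below 12.9. Among 9 tested genes of peroxisomal fatty acid oxidation 0 rose and 1 fell against control, beside 12.8% and 9.74% of all genes. Ehhadh fell by 0.92, and the median of the 9 was -0.05. That fall was lost without control replicate 1 (-0.82) or tumor replicate 2 (-0.73).

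Abce1, the 1 member of subfamily e, splits ribosomes after termination. Its probe set 1416015_s_at, of a type that can match several transcripts, read 1291 and 1148 in control, 811 and 881 in DSS, and 1624 and 1463 in tumor crypts, so that the 3 groups did not overlap and DSS was lowest. It rose by 0.85 ± 0.16 in tumor against DSS (adjusted p = 0.00732). DSS minus control was -0.52 ± 0.16 (unadjusted p = 0.0129, adjusted p = 1.00) and tumor minus control 0.34 (adjusted p = 0.177), and neither passed. The rise was no longer called with median centring (0.62) or without DSS replicate 1 (0.79). The second Abce1 probe set read 793 and 621, 568 and 574, and 910 and 782, with 0.55 in tumor minus DSS, which did not pass. Among 9 tested genes of ribosome recycling and translational control, 1 rose in tumor against DSS, where 14.8% of all genes rose. It was the release factor Gspt1, by 0.68, and 0 of the 9 were called against control. Gspt1 was lost with median centring (0.45) or without DSS replicate 1 (0.70), DSS replicate 2 (0.67) or tumor replicate 1 (0.58).

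Subfamily f, whose members act in translation, had no called gene. Abcf3 (1426748_s_at, of the same type) was nearest, at 252 and 246 in control, 245 and 211 in DSS, and 168 and 133 in tumor crypts. Its change of -0.67 ± 0.21 missed the threshold against control (adjusted p = 0.0535). It was called with quantile normalization (-0.88), median centring (-0.92) and no intensity trend (-0.67). The 3 Abcf3 probe sets gave -0.67 to -0.03 against control, so they disagree in size. Abcf2 was at 0.72 ± 0.27 (adjusted p = 0.0878), with both tumor values (163 and 206) above the others (86.6 to 125). Abcf1, with 4 probe sets that passed, gave 0.33 to 0.57 against control and -0.41 to 0.40 in DSS minus control, none of them called.

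Of the 18 ABC genes not tested, 16 were never above an array's median and 2, Abcb8 and Abcc2, were above it on 1 array. They had 23 probe sets, of which 5 stayed at or below 17.8 on all arrays. Abcb9, Abcg3 and Abcg4 belong to them, with ranges of 3.86 to 86.8, 6.99 to 20.2 and 1.31 to 69.0.

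In DSS against control, the groups did not overlap for 5 of the 18 tested genes in each direction. Higher on both DSS arrays were Abca3, Abcb10, Abcb1a, Abcc1 and Abcg5, where 12.8% of all genes were higher in this way. Lower on both were Abcc5, Abce1, Abcf3, Abcg1 and Abcg2, against 13.7% of all genes. None of these 10 passed the test. For Abcb1a (1419758_at) and Abcf3 (1426747_at), another probe set that passed the filter overlapped between DSS and control.

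Other genes of the pathways came from lists of known roles. The list of ABC genes outside the symbol rule has 3 members. Cftr, the chloride channel of crypts, read 1802 and 1639 in control, 1474 and 1491 in DSS, and 662 and 410 in tumor crypts, and fell by 1.69 ± 0.23 against control (adjusted p = 0.00173). Tap1 and Tap2, which carry peptides for antigen display, were at 0.53 and -0.04 and were not called, and of 6 peptide loading genes 0 passed. Of 4 tested partners of Cftr 2 fell against control, where 9.74% of all genes fell. These were the anion exchanger Slc26a3 (-4.06) and the scaffold Slc9a3r1 (-0.89), the second not without control replicate 2 (-0.78) or tumor replicate 1 (-0.70). Slc26a3 also belongs to the colonocyte markers.

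Among 12 tested regulators of pump genes, 1 rose and 3 fell against control, beside 12.8% and 9.74% of all genes. Their median was -0.58 and that of all genes 0.05, a difference that was not tested. Vdr, the vitamin D receptor, read 1602 and 1908 in control, 1742 and 1899 in DSS, and 469 and 486 in tumor crypts, and fell by 1.83. Nr3c1, the glucocorticoid receptor, fell by 1.13 and the hepatocyte nuclear factor Hnf4a by 0.74, while Ahr, the aryl hydrocarbon receptor, rose by 0.75. The fall of Hnf4a was lost in 9 of 18 alternatives, among them those without control replicate 1 (-0.47), DSS replicate 1 (-0.74), tumor replicate 1 (-0.87) or tumor replicate 2 (-0.60). The rise of Ahr was lost without control replicate 1 (0.80), control replicate 2 (0.69) or tumor replicate 2 (0.55), and with median centring (0.50). Of 4 tested uptake carriers 1 fell, the peptide carrier Slc15a1 (-3.11), and their median was -1.03. Of 6 tested sterol efflux partners 1 rose, Npc1, which releases cholesterol from lysosomes, by 1.07, and this was lost without control replicate 1 (1.07), control replicate 2 (1.06) or tumor replicate 2 (0.80). Of 5 genes that supply glutathione, a co-substrate of subfamily c, 0 passed. Of 13 genes of iron-sulfur and haem formation, Alad rose by 0.87 and Isca1 fell by 0.89. The first was lost with median centring (0.62) or without control replicate 2 (0.76), and the second without control replicate 2 (-0.83) or tumor replicate 2 (-0.67). In DSS against control 0 genes of any of these lists passed.

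**Figure D4:**
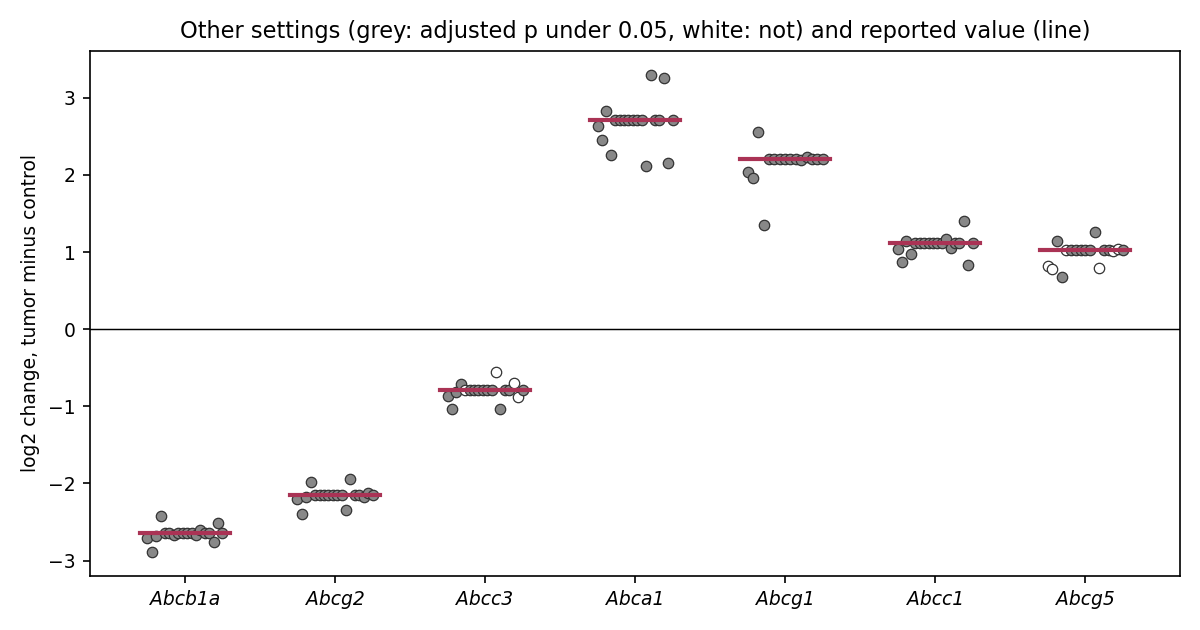
Log2 change in tumor minus control of the 7 called ABC genes under the other settings (points, grey where adjusted p is under 0.05 and white where not) and as reported (red line). All points of Abcb1a, Abcg2, Abca1 and Abcc1, each tested in all 18 alternatives, are grey. Abcg1 is grey in the 15 where it was tested. It has no point without either tumor array, where it missed the filter, so its row cannot show how those fits would turn out. Abcc3 has 4 white points and Abcg5, tested in 17, has 6, and no point crosses 0.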

How the data were processed

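Messenger RNA of 6 pools of mouse colonic crypts was measured on Affymetrix arrays. The deposited values are MAS5 signal intensities, linear and not log-transformed. MAS5 is named in the submitters' processing notes, and its version is not given in the sources used here. The trimmed mean of each array was near 500.2. Of 22690 probe sets 64 controls were set aside, and 20380 of the rest had 1 gene symbol, 691 several and 1555 none. No detection calls were used, so low values include background.

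Log2(intensity + 17.8), with the 25th percentile of all values as the pseudocount, was fitted over all 3 groups for 7456 genes in R 4.3.3 (limma 3.58.1, empirical Bayes with an intensity trend). Tests were two-sided with Benjamini-Hochberg adjustment over all genes. The arrays' spread covers only 2 pools a group. Members, gene lists and tests were chosen with earlier results of these data known. Named genes were Abcb1a, Abcg2, every called ABC gene, and, in a subfamily with none, the member of smallest p in tumor minus control, with up to 3 genes of smallest p of each other list. Members described beyond this rule, such as Abcc2, Abcc5, Abcf2 and Abcg8, were picked with their values known. The fit was checked on simulated data. Alternatives were another normalization, pseudocount, filter, probe set rule, trend, set of groups, a replicate block, and 1 array less.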

Additional observations from a re-analysis of the deposited data

How the results depend on the processing

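The alternatives covered the 10 named ABC genes, the called genes of the other lists except cell markers, and Lyz2, Cd14 and Vim, and none of their called log2 changes reversed. The calls of Abcb1a, Abcg2 and Abca1 in both tumor comparisons, and of Abcc1 against control, held in all 18 alternatives, and those of Abcg1 in the 15 where it was tested. Those of Cftr, Slc26a3, Vdr, Nr3c1, Slc15a1, Lyz2 and Vim against control also held in 18. Median centring moved the median of all genes in tumor minus control from 0.05 to -0.20, and its split from 954 higher and 726 lower to 651 and 1227. It moved the median of the ABC genes to -0.20 against control and to -0.18 against DSS. The 75th percentile filter left 2 ABC genes higher against control, since Abcg1 and Abcg5 were then not tested, and gave medians of 0.10 in DSS minus control and -0.11 in tumor minus DSS. With no filter, 5 ABC genes were lower in tumor against DSS (3 as reported), the added ones being Abcc6 and Abcc8, below every median, and 5 were higher (4 as reported), the added one being Abcc2 (2.04, adjusted p = 0.0414).

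With each array left out in turn, ABC genes higher against control numbered 2 (without tumor replicate 1 or 2) to 5, and against DSS 2 (without DSS replicate 1 or tumor replicate 2) to 4. The medians ran from -0.12 to 0.12 in DSS minus control, from -0.20 to 0.17 in tumor minus control and from -0.13 to 0.15 in tumor minus DSS. All called genes in tumor minus control went from 1680 to 1099 with the 75th percentile filter and to 846 without control replicate 2 and 702 without tumor replicate 2. In tumor minus DSS they went from 1950 to 1260, and to 903 and 1110 without DSS replicate 1 and 2, and 954 without tumor replicate 2.

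Same-numbered arrays deviated together with r of 0.45 (control and DSS), 0.08 (control and tumor) and 0.44 (DSS and tumor) over genes, and the labels do not say what a number shares. With the replicate block in the fit of 3 groups, Abcf3 was also called in tumor minus control (-0.67, adjusted p = 0.0393) and DSS minus control still had 0 calls. A fit of 2 groups only with the replicate block, chosen after the data were seen, called 2 ABC genes lower in DSS, Abcg2 and Abcc5, among 114 genes; it has 1 residual degree of freedom a gene. Probe sets near background limit Abcg1, Abcc2 and the genes not tested.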
